A study of Mus musculus with 6 samples.

Results

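The 35 genes described here encode the route that carries glucose to pyruvate and lactate and on into the tricarboxylic acid (TCA) cycle of the mitochondrion. They were taken by symbol from a table of gene expression in differentiating brown and white fat cells, and all 35 were found among 34465 symbols. Of these, 15 belong to glycolysis and lactate dehydrogenase and 20 to pyruvate dehydrogenase, its kinases, pyruvate carboxylase and the TCA cycle. Each reached an FPKM (fragments per kilobase of transcript, scaled to library size) of 1 or more in some library, and so belonged to the 14413 genes that were tested. The cells were grown from preadipocytes of BL6 mice aged 3 weeks, brown ones (BAT) from the interscapular depot and white ones (WAT) from the inguinal depot. Confluent cells of both kinds received insulin, dexamethasone, isobutylmethylxanthine and rosiglitazone and were then kept in maintenance medium. How the animals were divided over cultures is not given in the sources used here. Total RNA was sequenced from BAT on days 0, 4 and 6 and from WAT on days 0, 4 and 6, day 0 being before induction. Each combination of cell type and day had a single library (6 in total), and cell type and depot cannot be told apart.

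Depth, read from the spacing of low FPKM values, came to about 9.24 M fragments for WAT on day 0 and 17.3 to 21.8 M for the other 5 libraries. *Aldoc*, the least covered member, then had about 32.6 fragments in WAT on day 0, a counting error of 17.5%, and 117 or more elsewhere. WAT on day 0 also stood apart in its makeup, with 24.4% of the FPKM sum in genes of cytosolic ribosomal proteins, against 7.88% to 12.2% in the other 5. The 8 adipocyte markers summed to between 26840 and 47400 FPKM on days 4 and 6, against 1228 in BAT and 2032 in WAT on day 0. Most of the sum on days 4 and 6 was *Fabp4*, with 41440 and 26710 FPKM in BAT and 42700 and 22120 FPKM in WAT. Each of the 8 was higher on days 4 and 6 than on day 0 in both cell types. The 8 markers of preadipocytes and stroma summed to between 737.7 and 1941 FPKM on days 4 and 6, against 8530 in BAT and 3259 in WAT on day 0. The uncoupling protein of brown adipocytes, *Ucp1*, had 0, 9.93 and 3.65 FPKM in BAT on days 0, 4 and 6, against 1.49, 0.477 and 0.175 FPKM in WAT. The 9 listed markers of brown adipocytes were mixed on days 4 and 6. *Cidea* had 283.6 and 114.9 FPKM in BAT, against 34.1 and 9.84 FPKM in WAT. *Cox8b* was nearly level (427.8 and 435.1 FPKM in BAT, 403.5 and 407.3 FPKM in WAT). *Elovl3* was higher in WAT (125.1 and 7.94 FPKM in BAT, 189.5 and 16.6 FPKM in WAT). The 10 macrophage markers summed to 26.1, 72.7 and 97.6 FPKM in BAT, against 105, 203 and 375 FPKM in WAT, and the 9 measured markers of skeletal muscle to at most 9.80 FPKM in any library.

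Glycolysis splits glucose into pyruvate in the cytosol. Lactate dehydrogenase exchanges pyruvate and lactate, while the pyruvate dehydrogenase complex turns pyruvate that has entered the mitochondrion into acetyl-CoA, and its kinases switch that complex off by phosphorylation. Citrate synthase joins acetyl-CoA to oxaloacetate, which pyruvate carboxylase can supply from pyruvate, and the TCA cycle then yields reduced cofactors for the respiratory chain or citrate for the synthesis of fatty acids. Fat cells are known for using glucose carbon in both ways and for making the glycerol of their triglycerides from it, and brown fat is known for its many mitochondria, in which oxidation serves to make heat.

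The route as a whole was far more abundant in differentiated cells than in preadipocytes. Together the 35 members held 0.498%, 2.79% and 2.36% of all FPKM in BAT on days 0, 4 and 6, against 0.545%, 2.43% and 2.25% in WAT. By limma, with a term for day and a term for cell type over all 6 libraries and Benjamini-Hochberg adjustment over 14413 genes at 0.05, 32 of the 35 rose on days 4 and 6 relative to day 0 and none fell. Over all tested genes 11.3% rose and 10.6% fell. The median member differed by 2.65 on the log2(FPKM + 1) scale, a scale that understates the change of low genes, and the median of all genes by -0.13. Of the glycolysis members 13 of 15 rose, with a median of 2.32, and of the others 19 of 20, with a median of 2.71. *Hk1*, *Gapdh* and *Idh2* did not pass. In 33 members, all but *Hk1* and *Gapdh*, every library of days 4 and 6 lay above both libraries of day 0, a pattern that 20.8% of all tested genes shared.

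Within each cell type the step from day 0 to day 4 was at least 2-fold on the same scale for 33 members in BAT and 31 in WAT. Among all tested genes 17.1% were at least 2-fold higher and 23.2% lower on day 4 in BAT, and 15% higher and 19% lower in WAT, whereas no member was 2-fold lower in either. These pairs of single libraries have no replicate check, and days are not replicate cultures, so the residual of the limma model (2 degrees of freedom) holds noise together with any response that differs between BAT and WAT. The calls leaned on the day 4 libraries: 11 members were called higher when BAT on day 4 was left out and 13 when WAT on day 4 was. Over all genes the number called higher was then 296 and 319, against 1629 with all 6 libraries. The median member differed by 2.58 and 2.61 in these fits, against 2.65. *Pdk1*, *Pdk2*, *Pdk4*, *Pdhb*, *Dlat*, *Dld*, *Pcx*, *Cs*, *Idh3a* and *Sucla2* were called in both of these fits. No glycolysis member was called in both. The only glycolysis member called was *Aldoc* without BAT on day 4 and *Pfkp* without WAT on day 4. Without WAT on day 0, the library of unusual makeup, the fitted difference is the change in BAT alone, so that fit is no check on WAT. In RNA from whole cultures, a larger share of fat cells and more RNA of a gene per fat cell cannot be told apart.

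**Figure D1:**
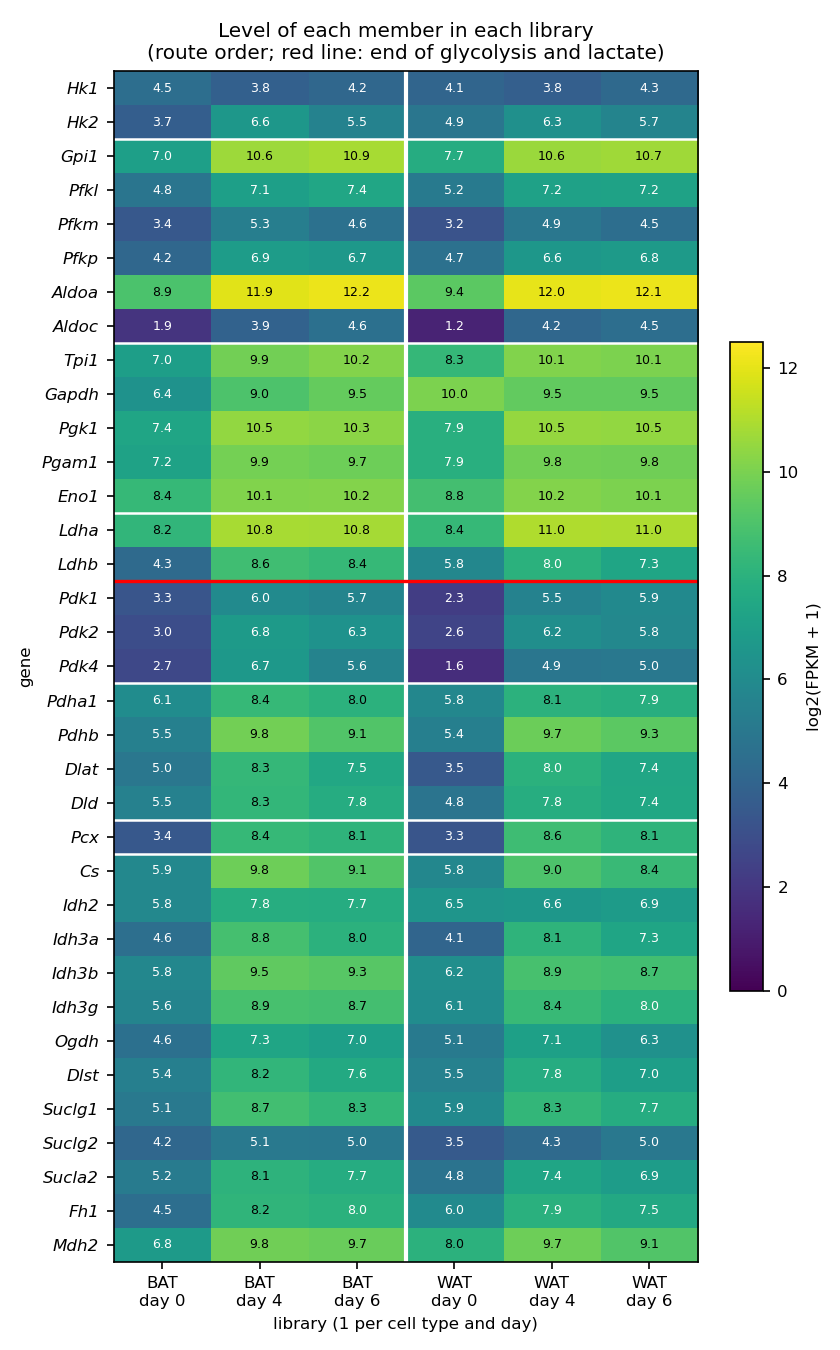
Level of each of the 35 members as log2(FPKM + 1) in each of the 6 libraries, in the order of the route, with the value printed in each cell and colour running from low (dark) to high (yellow). The columns of days 4 and 6 are brighter than those of day 0 in both BAT and WAT except in the rows of Hk1, Gapdh in WAT and, weakly, Idh2 in WAT and Suclg2.

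The sequence around the members' start sites was searched for 3 elements on both strands. The window ran from 250 bases before to 50 after each start in RefSeq (build GRCm38.p6), and 34 of the 35 members matched by symbol, with 52 starts. ACGTG or GCGTG, the core bound by hypoxia-inducible factors, occurred in 80% of the starts of glycolysis members (20 of 25) and in 63% of those of the other members (17 of 27), against 43.8% of all 32851 starts in the table. AAGGTCA, the element bound by estrogen-related receptors, occurred in 8%, 3.7% and 4.72% of the same sets. The palindromic element of NRF1, which drives nuclear genes for mitochondria, occurred in 4% of the starts of glycolysis members (that of *Pgam1*) and in 0 of 27 for the others, against 0.971% of all starts. These are matches of letters and show no binding, several genes have overlapping starts, and base composition was not matched. Shown are the windows of *Ldha* (chr7:46845554-46845853, plus strand), which had the most matches of the core of any start of a member, of *Pcx* (chr19:4510222-4510521, plus strand), the member with the greatest rise, and of *Pdk4* (chr6:5496229-5496528, minus strand) and *Idh2* (chr7:80115301-80115600, minus strand), which differed most between BAT and WAT on day 4. Capitals mark the core, and a CACGTG holds it on both strands.
Ldha: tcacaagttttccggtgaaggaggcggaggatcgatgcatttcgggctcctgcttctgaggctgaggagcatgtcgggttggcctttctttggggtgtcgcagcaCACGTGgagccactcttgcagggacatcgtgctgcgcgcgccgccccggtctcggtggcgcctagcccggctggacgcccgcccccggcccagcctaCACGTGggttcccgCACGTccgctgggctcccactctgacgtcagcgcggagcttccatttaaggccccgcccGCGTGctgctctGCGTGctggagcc
Pcx: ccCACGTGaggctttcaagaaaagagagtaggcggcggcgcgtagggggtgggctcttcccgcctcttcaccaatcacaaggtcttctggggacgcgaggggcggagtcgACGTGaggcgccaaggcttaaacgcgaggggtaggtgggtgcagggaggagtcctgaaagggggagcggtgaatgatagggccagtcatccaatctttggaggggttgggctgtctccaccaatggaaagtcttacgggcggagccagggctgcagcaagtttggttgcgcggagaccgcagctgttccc
Pdk4: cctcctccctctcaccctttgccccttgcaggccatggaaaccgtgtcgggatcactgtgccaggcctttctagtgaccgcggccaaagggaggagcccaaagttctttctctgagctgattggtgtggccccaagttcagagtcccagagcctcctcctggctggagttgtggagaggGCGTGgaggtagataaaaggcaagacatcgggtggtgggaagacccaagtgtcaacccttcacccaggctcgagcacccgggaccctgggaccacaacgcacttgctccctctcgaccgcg
Idh2: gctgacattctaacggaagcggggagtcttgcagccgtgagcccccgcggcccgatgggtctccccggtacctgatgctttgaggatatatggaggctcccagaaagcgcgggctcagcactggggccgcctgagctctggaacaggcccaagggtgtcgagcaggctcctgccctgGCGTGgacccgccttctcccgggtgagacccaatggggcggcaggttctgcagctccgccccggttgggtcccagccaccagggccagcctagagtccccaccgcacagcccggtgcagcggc

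Glucose is trapped in the cell by hexokinase, and here the isoenzymes parted. *Hk2*, the hexokinase of insulin-responsive tissues, rose on days 4 and 6 (log2 difference 1.68, SE 0.36, adjusted p = 0.0221). It had 12.4, 98.8 and 45.1 FPKM in BAT on days 0, 4 and 6, against 29.5, 75.7 and 49.4 FPKM in WAT. It was thus high on day 4 and lower again on day 6 in both, by 1.11 on the log2 scale in BAT. *Hk1*, the hexokinase found in most tissues, had 22.05, 13.2 and 16.8 FPKM in BAT, against 16.0, 13.0 and 18.3 FPKM in WAT, and its 6 values overlapped between the days (log2 difference -0.29, SE 0.26, adjusted p = 0.457).

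The 6 genes that carry glucose 6-phosphate to triose phosphates all rose. *Gpi1*, glucose phosphate isomerase, showed the greatest rise of glycolysis (log2 difference 3.33, SE 0.41, adjusted p = 0.00399), with 131, 1602 and 1881 FPKM in BAT on days 0, 4 and 6, against 211, 1572 and 1674 FPKM in WAT. Phosphofructokinase, the committed step, kept all 3 of its isoenzymes. *Pfkl*, the liver form, had 27.6, 132 and 168 FPKM in BAT, against 34.98, 143 and 147 FPKM in WAT. *Pfkp*, the platelet form, had 17.4, 118 and 102 FPKM in BAT, against 24.3, 97.5 and 111 FPKM in WAT. *Pfkm*, the muscle form, had 9.77, 39.6 and 24.0 FPKM in BAT, against 8.23, 29.5 and 22.2 FPKM in WAT. *Pfkl* was the most abundant form in every library, at 45.6% to 57.3% of the 3, and *Pfkm* the least, at 7.9% to 17.8%.

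Aldolase, which splits fructose 1,6-bisphosphate, came almost entirely from *Aldoa*. With 491, 3943 and 4568 FPKM in BAT on days 0, 4 and 6, against 655, 4135 and 4450.2 FPKM in WAT, it had the highest FPKM of the members' own entries in every library but WAT on day 0, where that of *Gapdh* was higher. With the FPKM of similar pseudogenes added to each gene, *Gapdh* stood above *Aldoa* in BAT on day 0 too, at 630.3 FPKM. That is a plain sum over entries whose lengths were not matched. *Aldoc*, the brain form, had 2.62, 14.1 and 23.2 FPKM in BAT, against 1.36, 16.9 and 21.5 FPKM in WAT, and at no time made up more than 0.531% of aldolase. Both rose, by a log2 difference of 2.91 (SE 0.53, adjusted p = 0.0128) for *Aldoa* and 2.74 (SE 0.30, adjusted p = 0.00302) for *Aldoc*.

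In the lower part of glycolysis 4 of 5 members rose. *Tpi1*, triose phosphate isomerase, had 129, 926 and 1157 FPKM in BAT on days 0, 4 and 6, against 321, 1109.7 and 1063 FPKM in WAT. *Pgk1*, phosphoglycerate kinase, which makes ATP, had 163, 1438 and 1272 FPKM in BAT, against 235, 1494 and 1405 FPKM in WAT. *Pgam1*, phosphoglycerate mutase, had 144, 941 and 859.8 FPKM in BAT, against 234, 908 and 874 FPKM in WAT. As deposited, WAT preadipocytes were above BAT ones for these 3, and differentiated BAT and WAT cells were nearly level, within 0.26 on the log2 scale. The order on day 0 depended on the scaling. As TPM, which divides by the FPKM sum of the library, 2 of the 5 members were higher in BAT, against 0 as deposited. *Eno1*, the general enolase, rose less (log2 difference 1.56, SE 0.39, adjusted p = 0.0352), with 333, 1128 and 1154 FPKM in BAT, against 436, 1156 and 1064 FPKM in WAT. *Eno2*, the enolase of neurons and no member of the set, fell (log2 difference -2.41, SE 0.46, adjusted p = 0.0155), and its share of enolase was 10.8%, 0.305% and 0.244% in BAT, against 3.26%, 0.438% and 0.404% in WAT.

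*Gapdh* (chr6:125111871-125116485, minus strand, mm9), which oxidises glyceraldehyde 3-phosphate, was the exception. Its own entry had 82.9, 509 and 748 FPKM in BAT on days 0, 4 and 6, against 1049.5, 717 and 734 FPKM in WAT, so that days 4 and 6 were above day 0 in BAT and below it in WAT. The log2 difference over both cell types was 1.17 (SE 0.77, adjusted p = 0.312). The table also lists 49 annotated pseudogenes that share at least 200 bases at 90% identity or more with the *Gapdh* transcript, and these summed to 547, 2859 and 3809 FPKM in BAT, against 235, 3221 and 3520 FPKM in WAT. The highest of them, *Gm12070*, had 157.5, 829 and 1096 FPKM in BAT, against 31.6, 921 and 1010 FPKM in WAT. Own entry and pseudogenes together gave 630.3, 3368 and 4557 FPKM in BAT, against 1284, 3938 and 4254 FPKM in WAT. FPKM is per length of each entry and lengths were not matched, so these plain sums are no level of 1 transcript. With these sums in its place, *Gapdh* rose (log2 difference 2.15, adjusted p = 0.0432) and 33 members were called higher. How fragments were divided between the gene and its copies was not tested, and the values of the *Gapdh* entry alone are uncertain. The other 7 members with similar pseudogenes in the table, among them *Pgam1*, *Eno1*, *Pgk1* and *Ldha*, kept the direction of each difference between days 0 and 4 with the copies added.

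**Figure D2:**
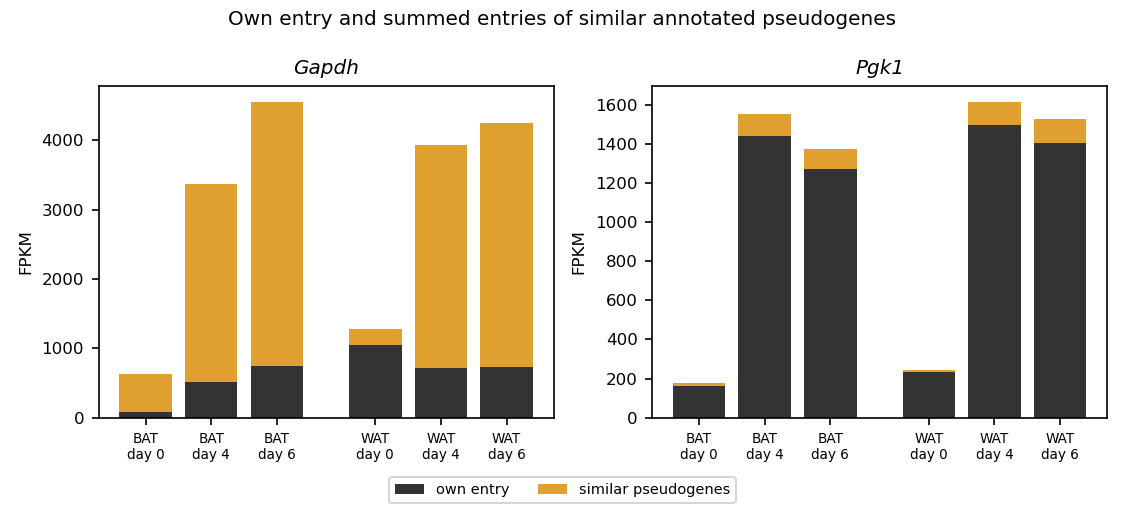
FPKM of the own entry (black) and summed FPKM of similar annotated pseudogenes (orange), stacked, for Gapdh and for Pgk1 in each of the 6 libraries. The black part of Gapdh is 82.9 FPKM in BAT on day 0 and 1049.5 FPKM in WAT on day 0, and most of its stack is orange in all libraries but WAT on day 0; the stack of Pgk1 is mostly black.

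The lactate dehydrogenase subunits differed in their course. *Ldha*, the subunit of glycolytic tissues, rose (log2 difference 2.60, SE 0.41, adjusted p = 0.00845), with 298, 1843 and 1806 FPKM in BAT on days 0, 4 and 6, against 334, 2028 and 2023 FPKM in WAT. *Ldhb*, the subunit of oxidative tissues such as heart, had 19.0, 400.1 and 335 FPKM in BAT, against 55.02, 248.7 and 162 FPKM in WAT. It was thus lower in BAT on day 0 and higher in BAT on days 4 and 6, and on day 6 it was the only member at least 2-fold apart between the cell types (log2 difference 1.04). Its share of both subunits was 5.98%, 17.8% and 15.6% in BAT, against 14.1%, 10.9% and 7.41% in WAT. The rise of *Ldhb* over both cell types passed the test (log2 difference 3.02, SE 0.54, adjusted p = 0.0121). Whether the response differed between BAT and WAT was not tested, as the residual of the model is that difference.

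All 4 members of the pyruvate dehydrogenase complex rose. *Pdhb*, the beta subunit of its E1 enzyme, rose most (log2 difference 4.07, SE 0.30, adjusted p = 0.00121), with 42.9, 905 and 553 FPKM in BAT on days 0, 4 and 6, against 41.3, 834 and 649 FPKM in WAT. *Pdha1*, the alpha subunit of the same enzyme, had 66.6, 327 and 263 FPKM in BAT, against 53.9, 265 and 229.9 FPKM in WAT. The order of the subunits was therefore turned: per length, *Pdhb* stood at 0.644, 2.76 and 2.1 times *Pdha1* in BAT and at 0.767, 3.15 and 2.82 times in WAT. *Dlat*, the E2 transacetylase, had 30.1, 321 and 179.6 FPKM in BAT, against 10.2, 249 and 167 FPKM in WAT. *Dld*, the E3 enzyme that the complex shares with the oxoglutarate dehydrogenase complex, had 44.4, 309 and 216 FPKM in BAT, against 26.9, 223 and 172 FPKM in WAT. All 4 were lower on day 6 than on day 4 in both cell types, by 0.20 to 0.84 on the log2 scale.

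The kinases that switch the complex off rose as well, and their mixture was another one after differentiation. *Pdk2*, a widely expressed form, rose most (log2 difference 3.52, SE 0.24, adjusted p = 0.0011), with 6.82, 111 and 80.4 FPKM in BAT on days 0, 4 and 6, against 4.96, 71.2 and 56.6 FPKM in WAT. *Pdk4* (chr6:5433351-5446309, minus strand, mm9), the form induced by fasting and fatty acids, had 5.44, 101 and 47.9 FPKM in BAT, against 2.11, 29.1 and 30.8 FPKM in WAT. Its rise also passed (log2 difference 3.38, SE 0.31, adjusted p = 0.00206), and so did that of *Pdk1* (3.01, SE 0.33, adjusted p = 0.00292). *Pdk1*, the form induced by hypoxia, had 8.74, 62.8 and 49.4 FPKM in BAT, against 3.79, 45.1 and 60.5 FPKM in WAT. *Pdk3*, which is no member of the set, fell (log2 difference -1.10, SE 0.30, adjusted p = 0.0442), with 18.04, 4.61 and 7.80 FPKM in BAT, against 15.1, 6.67 and 10.8 FPKM in WAT. It made up 46.2%, 1.65% and 4.2% of the 4 kinases in BAT, against 58.2%, 4.39% and 6.78% in WAT. The leading kinase was *Pdk2* in BAT on day 6 (43.4%) and *Pdk1* in WAT on day 6 (38.1%), where *Pdk2* followed closely (35.6%).

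**Figure D3:**
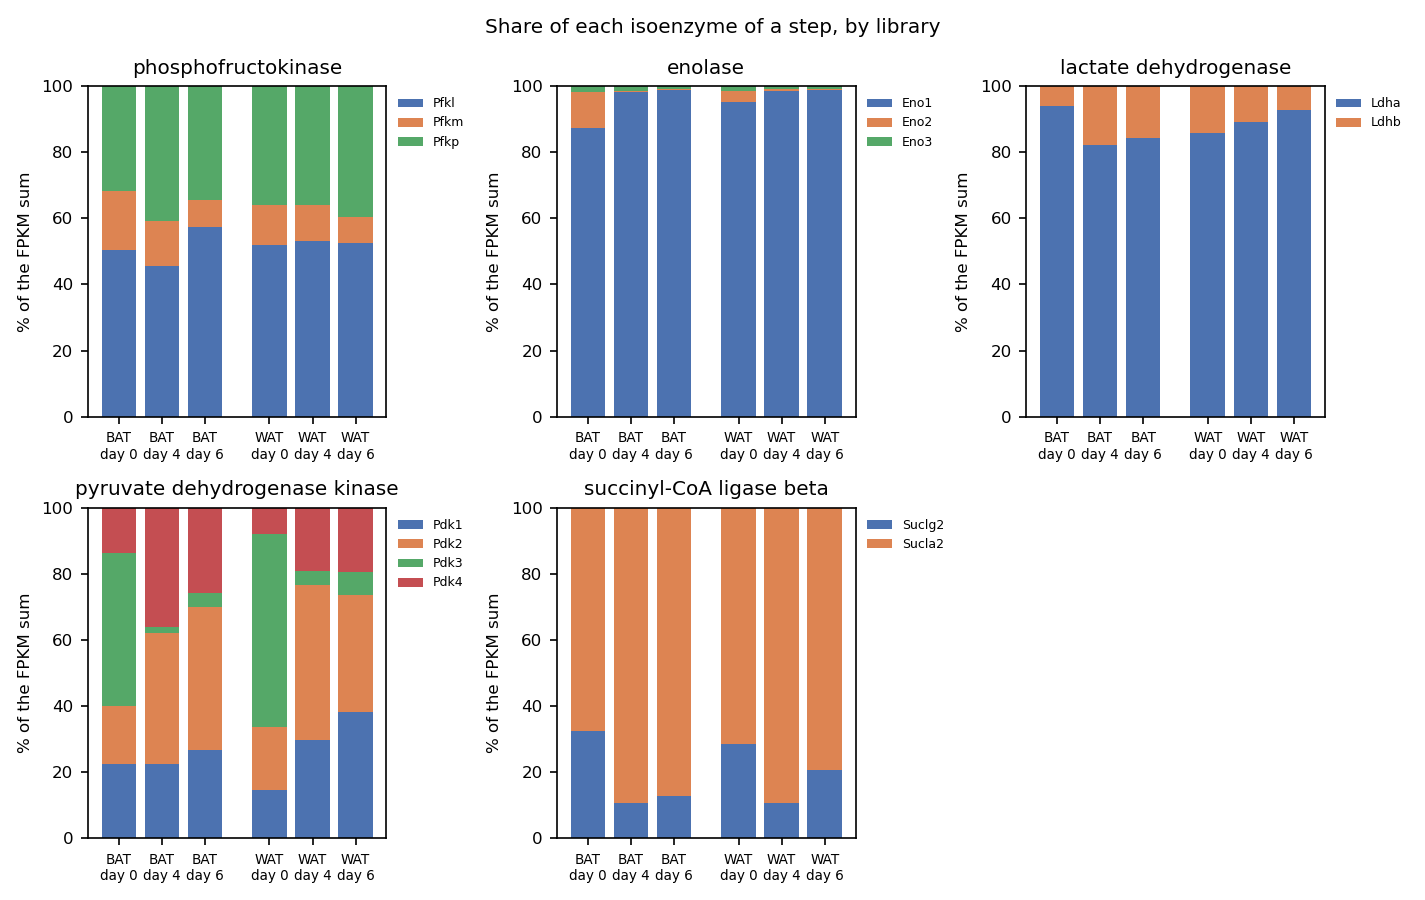
Share of each isoenzyme in the FPKM sum of its step (%, stacked to 100) for 5 steps in each library, BAT on the left and WAT on the right of each panel. The kinases other than Pdk3 together take larger shares on days 4 and 6 than on day 0 in BAT and in WAT, Pfkl is the largest share of phosphofructokinase in each library, and Ldhb is larger in BAT than in WAT on days 4 and 6.

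*Pcx* (chr19:4510472-4621752, plus strand, mm9), pyruvate carboxylase, showed the greatest rise of all 35 members (log2 difference 4.94, SE 0.25, adjusted p = 0.00108). It had 9.80, 334 and 280.3 FPKM in BAT on days 0, 4 and 6, against 8.98, 395 and 279 FPKM in WAT. The libraries of days 4 and 6 were at least 28.6 times those of day 0 in FPKM. As deposited, BAT and WAT were within 0.24 of each other on the log2 scale on each day. As TPM, BAT minus WAT was 0.75 on day 0, where the median of all genes was 0.80. After median-ratio scaling, which sets the median gene level between libraries, it was -0.45 on day 4.

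Of the 12 members of the TCA cycle 11 rose. *Cs*, citrate synthase, had 56.8, 863 and 544 FPKM in BAT on days 0, 4 and 6, against 54.6, 519.5 and 348 FPKM in WAT (log2 difference of the days 3.25, SE 0.31, adjusted p = 0.00213). The NAD-linked isocitrate dehydrogenase rose in each of its subunits, most in the catalytic *Idh3a* (log2 difference 3.76, SE 0.25, adjusted p = 0.0011). *Idh3a* had 22.7, 455 and 257 FPKM in BAT, against 15.6, 278 and 159.9 FPKM in WAT. *Idh3b* had 54.6, 706 and 615 FPKM in BAT, against 71.7, 472 and 423 FPKM in WAT. *Idh3g* had 48.9, 471 and 429 FPKM in BAT, against 66.8, 345 and 249 FPKM in WAT. *Idh3a* was the lowest of the 3 in all 6 libraries.

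*Idh2* (chr7:87239732-87260278, minus strand, mm9), the NADP-linked isocitrate dehydrogenase of mitochondria, did not pass the test of the days (log2 difference 1.07, SE 0.42, adjusted p = 0.12). It had 56.3, 218 and 210.2 FPKM in BAT on days 0, 4 and 6, against 89.3, 96.5 and 116 FPKM in WAT. Days 4 and 6 were thus 3.86 and 3.73 times day 0 in BAT and 1.08 and 1.3 times in WAT. Without WAT on day 0 the fitted difference is the change in BAT alone, 1.91 for *Idh2* and 2.88 for *Gapdh*. The change in WAT, the mean of days 4 and 6 relative to day 0, was 0.24 and -0.53. On day 4 *Idh2* was 2.25 times as high in BAT as in WAT. Relative to *Idh3a* it stood at 2.48, 0.478 and 0.819 in BAT and at 5.71, 0.347 and 0.727 in WAT, so the NADP-linked form led on day 0 and the NAD-linked subunit afterwards in both.

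The oxoglutarate dehydrogenase complex and succinyl-CoA ligase followed the rest of the cycle, apart from 1 subunit. *Ogdh*, the E1 enzyme of that complex, had 23.7, 160.2 and 130.3 FPKM in BAT on days 0, 4 and 6, against 33.6, 135 and 78.9 FPKM in WAT. *Dlst*, its E2 enzyme, had 40.7, 298 and 190.1 FPKM in BAT, against 44.2, 215 and 126 FPKM in WAT. *Suclg1*, the alpha subunit of succinyl-CoA ligase, had 32.3, 422 and 308 FPKM in BAT, against 59.4, 306 and 212 FPKM in WAT. The beta subunit decides whether the ligase makes ATP or GTP. *Sucla2*, the ATP-forming type, had 35.2, 271 and 213 FPKM in BAT, against 26.4, 163 and 119.8 FPKM in WAT. *Suclg2*, the GTP-forming type, had 16.8, 32.6 and 31.2 FPKM in BAT, against 10.5, 19.3 and 31.0 FPKM in WAT, and barely passed the test (log2 difference 1.01, SE 0.27, adjusted p = 0.0444). *Sucla2* made up 67.7%, 89.3% and 87.3% of both beta subunits in BAT, against 71.4%, 89.4% and 79.4% in WAT.

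The last steps of the cycle started from unequal levels. *Fh1*, fumarase, had 22.1, 288 and 251 FPKM in BAT on days 0, 4 and 6, against 62.2, 243 and 185 FPKM in WAT. *Mdh2*, mitochondrial malate dehydrogenase, had 111, 878 and 809 FPKM in BAT, against 261, 844 and 555 FPKM in WAT. As deposited, both were more than 2-fold lower in BAT than in WAT on day 0. They were higher in BAT on days 4 and 6, by at most 0.54 on the log2 scale. The size of differences on day 0 depended on the scaling: the median of all genes was 0.21 as deposited and 0.80 as TPM. The rises of *Fh1* and *Mdh2* over both cell types were 2.65 (SE 0.44, adjusted p = 0.00975) and 2.15 (SE 0.46, adjusted p = 0.021).

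On day 6 most mitochondrial members were below their level of day 4, while the glycolytic ones lay on both sides of it. All 20 members of pyruvate dehydrogenase and the TCA cycle were lower on day 6 than on day 4 in BAT (18 after median-ratio scaling, which sets the median gene level between libraries), and 16 in WAT (then 18). Their median difference was -0.34 in BAT and -0.41 in WAT. Of the 15 glycolysis members 7 were lower in BAT (6 with median-ratio scaling) and 8 in WAT (13 with that scaling). Of all tested genes 45.1% lay above their day 4 level on day 6 in BAT, with a median of -0.04, and 69.6% in WAT, with a median of 0.19. The sum of the glycolysis members was 14160 FPKM on day 6 and 13146 FPKM on day 4 in BAT, and 13819 and 13745 FPKM in WAT. The sum of the others was 5656 FPKM on day 6 and 7536 FPKM on day 4 in BAT, and 4249 and 5745 FPKM in WAT. No single step was large: *Hk2* and *Pdk4* in BAT were the only members at least 2-fold lower and none was 2-fold higher. Among all tested genes 3% were at least 2-fold higher and 3.46% lower on day 6 in BAT, and 4.42% higher and 2.16% lower in WAT. By limma 0 members and 0 of all genes were called between days 6 and 4, and 1 member, *Idh3a*, had an unadjusted p under 0.05 (log2 difference -0.81, SE 0.29), as did 3.89% of all genes. The mitochondrial genome's own RNAs held 15.3% of all FPKM in BAT on day 6, against 5.54% on day 4, and 14.1% in WAT on day 6, against 11.1% on day 4, and their part in these differences was not tested.

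**Figure D4:**
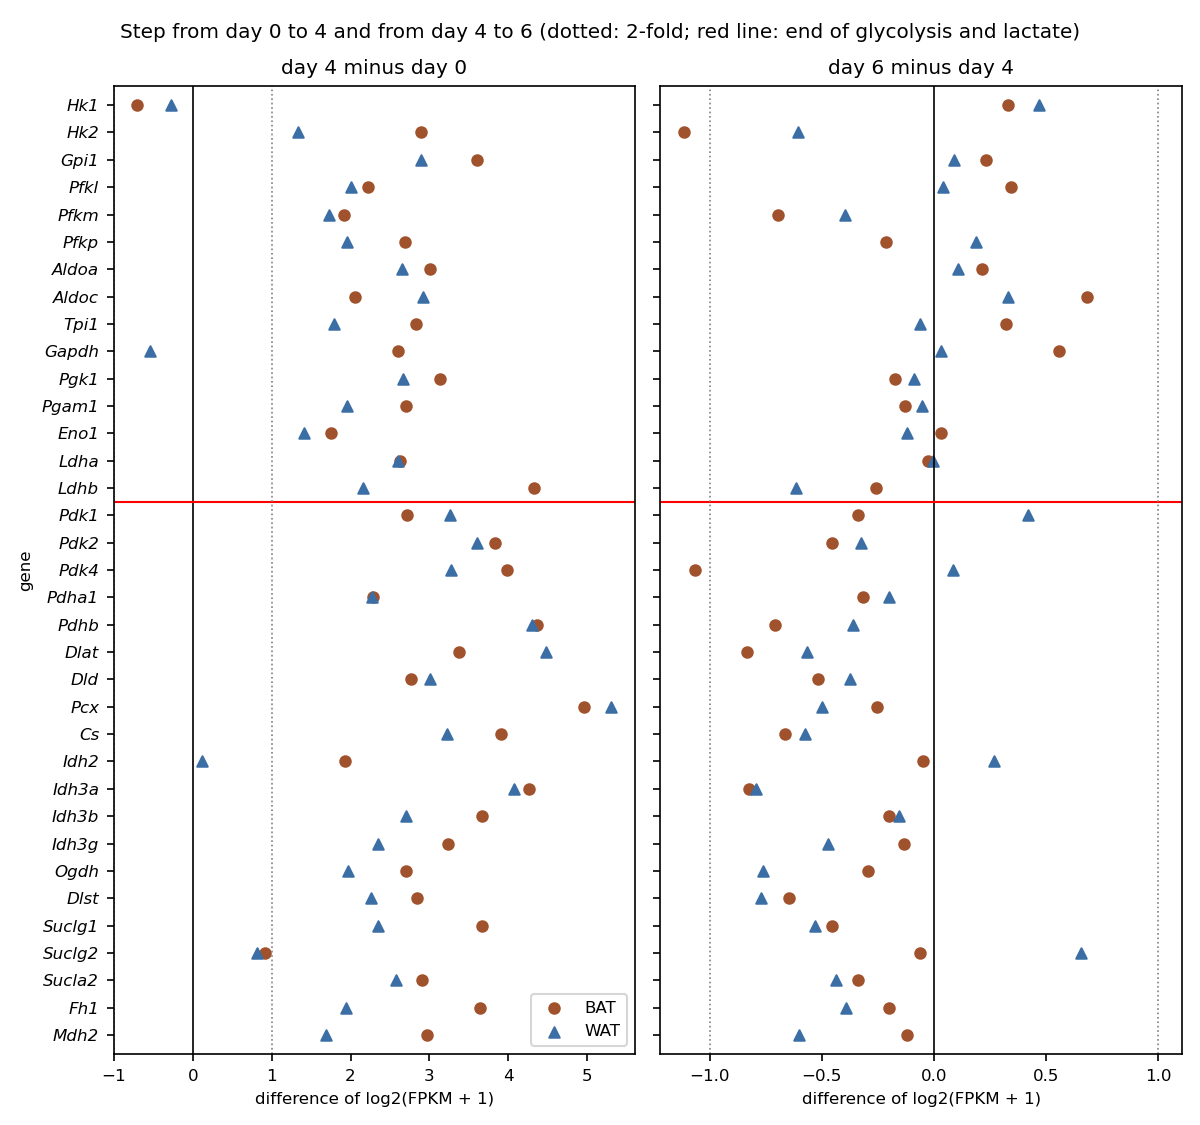
Difference of log2(FPKM + 1) of each member between days 4 and 0 (left) and between days 6 and 4 (right), BAT as brown circles and WAT as blue triangles, with dotted lines at 2-fold. On the left nearly all points lie right of the upper 2-fold line; on the right the points below the red line, of pyruvate dehydrogenase and the TCA cycle, lie mostly left of 0 in both cell types (also after median-ratio and TPM scaling), and those of glycolysis on both sides of it.

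Between the cell types limma called 0 members and 0 of all genes. At an unadjusted p under 0.05 there were 3 members, *Pdk4* (log2 difference of BAT from WAT 1.14, SE 0.29), *Sucla2* (0.65, SE 0.24) and *Idh3a* (0.63, SE 0.24), each with an adjusted p of 0.674, against 5.65% of all genes. All 3 were higher in BAT than in WAT on each of the 3 days. Over the cell type coefficient the median was 0.36 for pyruvate dehydrogenase and the TCA cycle, -0.15 for glycolysis and 0.10 for all genes.

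Among preadipocytes the order of BAT and WAT depended on the scaling. On day 0, 12 of 15 glycolysis members were lower in BAT than in WAT, with a median of -0.46, but on the TPM scale, which divides by the FPKM sum of the library, 9 of 15 were higher in BAT and the median was 0.19. The 20 other members had a median of 0.09 (-0.21 after median-ratio scaling and 0.74 as TPM). The median of all genes was 0.21 as deposited, 0.00 after median-ratio scaling and 0.80 as TPM, and 58.1% of them were higher in BAT as deposited. At least 2-fold higher in BAT were *Dlat*, *Pdk4* and *Pdk1*, and at least 2-fold lower were *Gapdh*, *Ldhb*, *Fh1*, *Tpi1*, *Mdh2* and *Hk2*. Of all tested genes 20.7% were 2-fold higher and 13% lower. With the trend of the difference over transcript length removed, 4 members in place of these 9 were 2-fold apart.

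In differentiated cells the TCA cycle members stood higher in BAT, and the glycolysis members lay on both sides of 0 as deposited. By limma none of them was called between the cell types. On day 4 all 12 TCA cycle members were higher in BAT than in WAT (11 after median-ratio scaling), with a median of 0.53, and on day 6 all 12 again (11 as TPM), with a median of 0.62. Of all tested genes 62.1% were higher in BAT on day 4 and 37.5% on day 6. For all 20 members of pyruvate dehydrogenase and the TCA cycle the medians were 0.47 on day 4 and 0.54 on day 6, for the glycolysis members -0.04 and 0.04 (0.08 and -0.02 as TPM), and for all genes 0.13 and -0.09. As deposited, 7 of the 15 glycolysis members were higher in BAT on day 4 and 9 on day 6. After median-ratio scaling these were 4 and 14, with medians of -0.25 and 0.19, against 0.26 and 0.69 for the 20 others. The differences were small beside the rise with differentiation: *Pdk4* (1.77) and *Idh2* (1.16) were the only members at least 2-fold apart on day 4, and *Ldhb* on day 6, all higher in BAT. Of all tested genes 3.51% were 2-fold higher and 3.08% lower in BAT on day 4, and 1.8% higher and 4.09% lower on day 6. Both BAT libraries of days 4 and 6 lay above both WAT libraries for 10 of the 20 members (*Pdk2*, *Pdk4*, *Cs*, *Idh2*, *Idh3b*, *Idh3g*, *Suclg1*, *Suclg2*, *Sucla2* and *Fh1*) and for *Ldhb* among the 15 of glycolysis, against 17% of all genes. The reverse held for *Ldha* alone, against 14.7% of all genes. The macrophage markers, higher in WAT, and the preadipocyte markers, with sums of 737.7 FPKM (day 4) and 922.5 FPKM (day 6) in BAT, against 1434 and 1941 FPKM in WAT, moved with these differences, and their part in them was not tested.

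**Figure D5:**
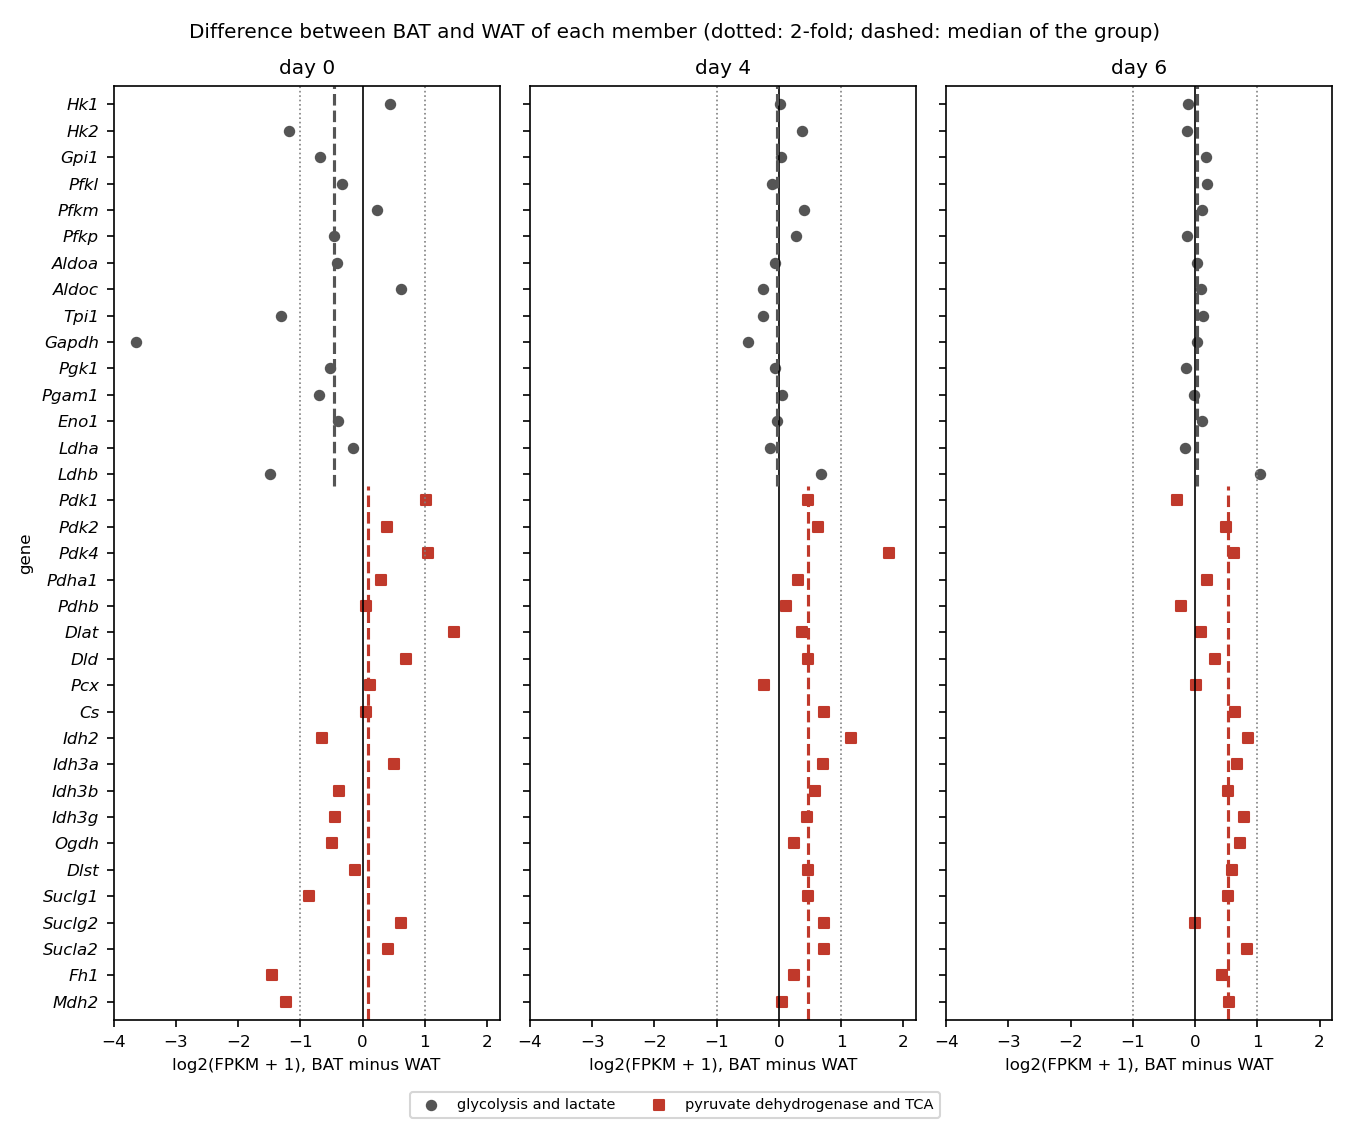
Difference of log2(FPKM + 1) between BAT and WAT for each member on days 0, 4 and 6, grey circles for glycolysis and lactate dehydrogenase and red squares for pyruvate dehydrogenase and the TCA cycle, with dotted lines at 2-fold and a dashed line at the median of each group. The red medians are 0.09, 0.47 and 0.54 (-0.21 on day 0 after median-ratio scaling) and the grey ones -0.46, -0.04 and 0.04, whose signs turn on the TPM scale.

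The genes that complete the route were higher on days 4 and 6 than on day 0, and only that of pyruvate kinase fell short of the threshold. *Pkm*, listed as *Pkm2*, the pyruvate kinase of most tissues, had 435, 1349 and 1249 FPKM in BAT on days 0, 4 and 6, against 595, 1331 and 1097 FPKM in WAT, and did not pass the test (log2 difference 1.30, SE 0.41, adjusted p = 0.072). *Mpc1* and *Mpc2*, which form the carrier of pyruvate into mitochondria, rose by 3.97 (SE 0.28, adjusted p = 0.0011) and 3.22 (SE 0.54, adjusted p = 0.00972). *Mpc1*, listed in the table as *Brp44l*, had 27.1, 466 and 469.8 FPKM in BAT, against 34.6, 495 and 550.4 FPKM in WAT. *Pdhx*, which holds the E3 enzyme in the pyruvate dehydrogenase complex, had 7.48, 51.0 and 41.2 FPKM in BAT, against 6.81, 42.6 and 31.9 FPKM in WAT. All 4 subunits of succinate dehydrogenase rose, with log2 differences between 2.12 (*Sdhc*) and 3.04 (*Sdhb*). *Mdh1*, the malate dehydrogenase of the cytosol, rose too (log2 difference 3.37, SE 0.32, adjusted p = 0.00213), with 66.0, 829 and 765 FPKM in BAT, against 68.0, 771 and 499 FPKM in WAT.

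Of 18 further glycolysis genes 12 were measured, of which 3 rose and 1 fell. Among those that rose, *Pgm2*, a phosphoglucomutase, differed by 2.84 (SE 0.24, adjusted p = 0.00182) and *Ldhd*, which oxidises D-lactate, by 2.21 (SE 0.30, adjusted p = 0.00507). *Eno2* fell, as given above, while *Adpgk*, an ADP-dependent sugar kinase, and *Minpp1*, a phosphatase, had differences of -0.85 and -0.81 that did not pass (adjusted p = 0.0876 and 0.0771). Fructose 2,6-bisphosphate, the activator of phosphofructokinase, is made and broken down by bifunctional enzymes. Of the 5 measured genes listed for its control, which include *Tigar* beside those of the bifunctional enzymes, 2 rose. *Pfkfb3*, whose product mostly makes fructose 2,6-bisphosphate, had 7.20, 254 and 68.4 FPKM in BAT on days 0, 4 and 6, against 3.29, 139 and 142 FPKM in WAT (log2 difference 4.53, SE 0.45, adjusted p = 0.00239). *Pfkfb1* had 2.22, 71.2 and 40.8 FPKM in BAT, against 1.82, 53.1 and 34.0 FPKM in WAT (log2 difference 4.02, SE 0.24, adjusted p = 0.00108).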

How the data were processed

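RNA was measured in 6 libraries, 1 for each of 2 cell types (BAT, WAT) and 3 days, grouped by their labels; columns headed SUB in the deposited table were taken as WAT, since its cells come from the inguinal depot, under the skin. The authors aligned directional total RNA reads to mm9 with TopHat and estimated FPKM with Cufflinks, per the paper's methods, which name no gene annotation (97.9% of the table's IDs are in GENCODE M1), so values are per transcript length and library, and fragments shared by near-identical copies were divided by the estimator. Depth was estimated from the steps of low values, 82.1% to 90.5% of which lay within 10% of whole fragments, and such intervals cover counting error only. Of 37841 entries, 3376 repeats of a symbol with a lower mean were dropped. Genes reaching FPKM 1 in some library were tested on log2(FPKM + 1) with limma 3.58.1 in R 4.3.3 (variance trend, day and cell type, Benjamini-Hochberg adjustment). Pairs of libraries were described by a 2-fold rule with no p. Similar pseudogenes were found with BLAST 2.17.0. Tables were made with pandas 2.3.3. All 35 members were named, with the genes completing the route and, per further list, up to 3 with the largest rise and fall at an FPKM of at least 10; some genes this rule takes in are not reported here. Members and lists were chosen with earlier results of these data known. Alternatives were other pseudocounts, filters, folds, median-ratio and TPM scaling and leaving out libraries; removal of the length trend, pseudogene sums and the medians under other scalings were added after seeing the data. Libraries of other treatments, and methylation, were not analysed here.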

Additional observations from a re-analysis of the deposited data

Results flagged for a closer look

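*Gapdh* is set apart because its entry moved in opposite directions in the cell types, in each library. The mean of days 4 and 6 relative to day 0 was 2.88 on the log2(FPKM + 1) scale in BAT and -0.53 in WAT. The difference between the cell types was not tested, since there is 1 library a condition. With the FPKM of its 49 similar pseudogenes added as a plain sum, day 4 lay above day 0 by 2.42 in BAT and 1.62 in WAT.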

How the results depend on the processing

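The number of members called higher on days 4 and 6 was 32 and stayed within 1.5 times that in all settings but those without BAT on day 4 (11) or WAT on day 4 (13); leaving out each library in turn gave 11 to 33. With a library of day 0 left out, the fitted difference of the days is the change in the other cell type alone. No member was called lower, between the cell types or between days 6 and 4 in the fit reported. Between BAT and WAT on day 0, 9 members were 2-fold apart, 16 under a 1.5-fold rule, 1 under a 4-fold rule and 4 with the length trend removed. On day 4 these were 2, against 8 and 0 under the 1.5-fold and 4-fold rules and 1 after median-ratio scaling. On day 6 there was 1, against 9 and 0 under those rules and 0 as TPM. Between days 6 and 4 there were 2, against 16 and 0 under those rules and 4 after either scaling. The BAT to WAT median of glycolysis turned as TPM to 0.19, 0.08 and -0.02 on days 0, 4 and 6, and that of pyruvate dehydrogenase and the TCA cycle on day 0 turned to -0.21 after median-ratio scaling and was 0.74 as TPM. The causes of these shifts were not tested beyond what each setting changes. No paired analysis was possible because each condition has 1 library and no replicate numbers to match; the cell types were compared within days through the day term of the limma fit. Depth limits *Aldoc* in WAT on day 0 most.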

Other observations

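Some genes of glucose uptake and of routes that branch from glycolysis rose on days 4 and 6, as did 11.3% of all tested genes, and others did not pass. *Slc2a4*, the insulin-responsive glucose transporter, had 0.332, 226 and 186 FPKM in BAT on days 0, 4 and 6, against 2.57, 185 and 152 FPKM in WAT (limma, log2 difference of days 4 and 6 from day 0 6.42, SE 0.41, adjusted p = 0.0011). *Slc2a1*, the transporter of most cells, had 31.1, 21.4 and 22.9 FPKM in BAT, against 26.5, 23.1 and 54.1 FPKM in WAT, and did not pass (log2 difference -0.03, SE 0.35, adjusted p = 0.958). Of 4 measured glucose transporters 2 rose, the other being *Slc2a8* (1.27, SE 0.26, adjusted p = 0.0182).

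Of the 8 genes of the pentose phosphate pathway, which makes NADPH and ribose, 5 rose and none fell. *Taldo1*, transaldolase, rose most (log2 difference 2.74, SE 0.35, adjusted p = 0.00459), followed by *G6pdx*, its first enzyme (2.28, SE 0.26, adjusted p = 0.00337), and *Tkt*, transketolase (2.01, SE 0.29, adjusted p = 0.00639). *H6pd*, the form of the endoplasmic reticulum, had a difference of -0.29 (adjusted p = 0.552).

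Among 15 genes of cytosolic partners and anaplerosis 6 rose and none fell. *Gpd1*, which makes glycerol 3-phosphate from a glycolytic intermediate, had 3.77, 544 and 555 FPKM in BAT on days 0, 4 and 6, against 15.6, 447 and 304 FPKM in WAT (log2 difference 5.66, SE 0.55, adjusted p = 0.00217). *Pck1*, which makes phosphoenolpyruvate from oxaloacetate, had 0.0234, 43.9 and 34.6 FPKM in BAT, against 1.79, 11.9 and 11.9 FPKM in WAT (log2 difference 3.75, SE 0.67, adjusted p = 0.0125). *Me1*, the malic enzyme of the cytosol, had 30.3, 230.4 and 211 FPKM in BAT, against 21.9, 405 and 329 FPKM in WAT (log2 difference 3.41, SE 0.35, adjusted p = 0.00251). *Acly*, ATP citrate lyase, had 129, 0 and 0 FPKM in BAT, against 47.7, 0 and 277 FPKM in WAT, and such a 0 can be a failed estimate. *Pck2*, the mitochondrial form of *Pck1*, had a difference of -0.67 that did not pass (adjusted p = 0.102).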
